A study of Mus musculus with 20 samples.

Results

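The response of Trim33-WT mouse liver cancer cells to hydroxyurea (HU) was read from 4 of the 20 RNA-seq libraries of the series, 2 untreated and 2 HU-treated, and was tested over all 11210 genes of the count table. The 4 libraries were chosen by their labels, and no measured value was used to choose them.

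The cells were p19/Nras cells, a line from a liver tumor driven by Nras in a mouse lacking p19Arf, so every group shared the loss of p19Arf and the Nras driver. Trim33-WT cells carried a control sgRNA (sgCtrl), and the Trim33-KO cells used below for comparison carried an sgRNA against Trim33 (sgTrim33). HU-treated cells received 1 mM HU for 4 h and untreated cells received the control, 2 libraries per group. The comparison addresses how the transcriptome of the parental genotype answers stalled replication forks, and RNA was taken at 1 dose and 1 time.

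HU inhibits ribonucleotide reductase, the enzyme that makes deoxyribonucleotides, so that replication forks slow and expose single-stranded DNA. Stalled forks activate the Atr-Chk1 checkpoint, which holds cells in S phase, and can activate p53, which induces Cdkn1a and other arrest genes and its own inhibitor Mdm2. Cells under metabolic or translational stress also use Atf4, a factor of the integrated stress response whose targets import and make amino acids, while Jun, Fos and Egr factors and NF-kB turn on within hours of many kinds of stress.

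The deposited counts summed to between 2315327 and 2832955 reads in 3 of the 4 Trim33-WT libraries and to 3082202 in HU-treated replicate 1, with 29 to 61 genes at 0. Trim33 stood at 139.7 and 125.2 CPM (counts relative to the scaled library total) in the untreated and 142.2 and 139.2 CPM in the HU-treated Trim33-WT libraries, against 43.8 to 52.2 CPM in the 4 Trim33-KO libraries, so the labelled genotypes did not overlap. Of 6 hepatocyte markers Afp was measured, at 11.4 to 17.1 CPM, and Alb, Ttr, Apoa1, Hnf4a and Serpina1a had no row to analyse here. The epithelial keratins Krt8 and Krt18 stood between 994.3 and 1195.8 CPM and Vim between 2602.4 and 2885.6 CPM in all 4 libraries. Of the other epithelial markers Krt19 stood at 131.9 to 217.0 and Sox9 at 23.1 to 71.3 CPM, while Epcam and Cdh1 had no row. Of the other mesenchymal markers Col1a1 stood at 5.09 to 7.52 and Pdgfrb at 12.9 to 17.8 CPM, while Col1a2 and Acta2 had no row. Of 4 leukocyte and 3 endothelial markers only Cd68 was listed, at 1.39 to 5.09 CPM. Among ribosomal RNAs, Rn18s stood at 2761.8 and 1984.1 CPM in untreated and 1930.0 and 2058.7 CPM in HU-treated libraries, and mt-Rnr1 at 379.5 and 304.5 against 224.3 and 233.4 CPM (log2FC -0.58, p adj = 1.46e-04). Whether RNA composition had a part in the results was not tested.

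HU changed 1102 of 11210 genes, 9.83% of those tested, at an adjusted p under 0.05 (p adj, edgeR quasi-likelihood test with Benjamini-Hochberg adjustment). Of these, 716 genes rose (6.39% of those tested) and 386 fell (3.44%). The rises were larger than the falls. The median log2FC was 0.85 among the genes that rose and -0.56 among those that fell, against 0 over all genes and a median standard error of 0.22. A log2FC of at least 1 was reached by 286 of the rising genes, and 50 of the falling genes reached -1 or less. In each of the 1102 genes the HU-treated and untreated libraries did not overlap, as was so for 51% of all genes tested. The number of calls depended on both HU-treated libraries. Without HU-treated replicate 1, 553 genes were called (416 higher and 137 lower), and without HU-treated replicate 2, 580 were called (436 higher and 144 lower). In bulk RNA, a change in the number of cells in a given state and a change in RNA per cell cannot be told apart.

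Targets of p53 rose as a group. Of 29 measured genes of p53 feedback, arrest and repair, 18 rose and none fell, with a median log2FC of 1.09. The rises were 62.1% of the list, against 6.39% of all genes. The change of lowest p in the whole table was that of Mdm2 (mm9, chr10:117125944-117147814), the ubiquitin ligase that degrades p53, at 180.3 and 171.4 CPM in untreated and 1241.8 and 1228.1 CPM in HU-treated libraries. The HU-treated libraries lay above both untreated ones by far more than the replicates differed (log2FC 2.81, SE 0.109, p adj = 4.40e-31). Cdkn1a (chr17:29227924-29237667), the inhibitor of cyclin-dependent kinases that arrests cells, stood at 57.4 and 49.6 CPM in untreated and 478.2 and 478.6 CPM in HU-treated libraries. The groups were again far apart (log2FC 3.16, SE 0.128, p adj = 3.14e-30). Btg2, an antiproliferative gene, rose from 18.8 and 13.5 to 114.5 and 108.8 CPM (log2FC 2.79), and Plk2, a kinase induced by p53, from 84.0 and 68.0 to 396.8 and 368.5 CPM (log2FC 2.34). Ccng1, a cyclin of the p53 feedback, rose less, from 585.6 and 518.0 to 1016.2 and 1017.9 CPM (log2FC 0.88, p adj = 2.74e-10). The mRNA of p53 itself did not pass the test, with Trp53 at 166.6 and 158.6 CPM in untreated and 161.9 and 162.4 CPM in HU-treated libraries (log2FC 0.00, SE 0.12). Neither did Rrm2b, the p53-inducible ribonucleotide reductase subunit, at 33.4 and 24.1 against 24.2 and 31.5 CPM, nor Sesn1 (log2FC -0.44). The relative of Sesn1, Sesn2, rose (log2FC 2.51) and is also on the list of integrated stress response genes below.

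Among 13 measured p53 targets of apoptosis, 8 rose and 1 fell (61.5% and 7.69%, against 6.39% and 3.44% of all genes). Bbc3, which encodes the pro-apoptotic Puma, stood at 5.57 and 5.26 CPM in untreated and 37.2 and 35.0 CPM in HU-treated libraries (log2FC 2.73, p adj = 1.89e-09), without overlap. The death receptor gene Fas rose from 0.857 and 0.752 to 9.86 and 6.93 CPM, at few reads (log2FC 3.32, SE 0.794, p adj = 2.31e-03). Its call was lost in 1 of the 4 fits that each left out a Trim33-WT library. Eda2r, a receptor of the same family, rose from 42.8 and 36.8 to 108.5 and 111.2 CPM (log2FC 1.47), and Apaf1, which assembles the apoptosome, from 51.0 and 60.9 to 98.6 and 90.0 CPM (log2FC 0.75). The executioner caspase gene Casp6 fell from 40.7 and 34.6 to 20 and 20.1 CPM (log2FC -0.90, p adj = 0.0118), a call kept in 1 of those 4 fits. Bax did not pass the test, at 82.7 and 114.3 against 132.4 and 126.4 CPM (p adj = 0.0722). Of 10 further Bcl2 family members 1 was called, Bcl2, which fell (log2FC -0.68) and lost the call in each of the 4 fits. That share called, 10%, was near the 9.83% of all genes.

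The promoter of Cdkn1a is shown because it was the only one among the genes that rose to hold the p53 response element as searched, 2 copies of the 10-letter consensus at most 13 bases apart. The sequence covers 250 bases before to 50 bases after the RefSeq gene start (GRCm38.p6, chr17:29090729-29091028, plus strand), which matched mm9 exactly at chr17:29227674-29227973. Capitals mark both copies and the bases between them. The 10 bases right after the capitals, tgacatgttc, differ from the consensus only at their first base, so the search did not count them. Which of these bases p53 binds was not tested.
Cdkn1a: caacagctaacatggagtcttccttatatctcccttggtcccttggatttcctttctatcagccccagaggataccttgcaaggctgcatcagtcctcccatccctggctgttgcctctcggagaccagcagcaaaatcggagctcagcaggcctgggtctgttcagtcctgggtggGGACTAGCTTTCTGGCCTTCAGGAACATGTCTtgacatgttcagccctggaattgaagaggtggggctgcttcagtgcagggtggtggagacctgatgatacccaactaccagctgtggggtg
Over all genes tested with a RefSeq promoter (8560), 4 held this element, 0.0467%, and elements farther from the start were outside the window searched.

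Integrated stress response genes rose together. Of 40 measured targets of Atf4 and its partners, 30 rose and none fell, with a median log2FC of 0.86. The rises were 75% of the list, against 6.39% of all genes. A log2FC above 0 was seen in 39. Fewer genes of the list were called with any 1 Trim33-WT library left out. Atf4 (activating transcription factor 4) stood at 318.3 and 324.4 CPM in untreated and 643.3 and 644.5 CPM in HU-treated libraries (log2FC 1.00, SE 0.105, p adj = 1.59e-11). Replicates differed little on both sides of this rise. Atf3 (chr1:192994175-193007219), a stress-induced factor of the same family and also an immediate-early gene, had the largest rise of the genes with at least 5 CPM on average, from 0.857 and 3.01 CPM to 147.6 and 166.2 CPM (log2FC 6.26, SE 0.279, p adj = 4.41e-28). Chac1 (chr2:119176965-119180117), which degrades glutathione, rose from 2.57 and 1.5 to 59.2 and 69.3 CPM (log2FC 4.97). The pro-apoptotic factor gene Ddit3 (CHOP) rose from 4.28 and 6.39 to 71.0 and 80.4 CPM (log2FC 3.8). Atf3, Chac1 and Ddit3 all had few reads before treatment and many after it. For Atf3 these were 10 and 944, and its log2FC was 5.67 to 7.43 with 1 Trim33-WT library left out. Trib3, a pseudokinase that binds Atf4, rose from 5.14 and 4.51 to 73.2 and 88.3 CPM (log2FC 4.06), and Gdf15, a secreted stress cytokine that p53 also induces, from 19.7 and 27.8 to 225.9 and 212.7 CPM (log2FC 3.19). Ppp1r15a, the phosphatase subunit that ends the response, rose from 14.6 and 19.5 to 156.5 and 135.8 CPM (log2FC 3.09).

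Slc7a11, the cystine importer, rose from 77.1 and 72.2 to 260.9 and 251.1 CPM (log2FC 1.78), and Asns, asparagine synthetase, from 49.7 and 43.6 to 85.3 and 84.5 CPM (log2FC 0.87). The serine synthesis genes Phgdh (log2FC 0.09) and Psat1 (log2FC 0.16) did not pass the test. In the unfolded protein response of the endoplasmic reticulum, 4 of 28 measured genes rose and 1 fell, with a median log2FC of 0.12. These shares were 14.3% and 3.57%, against 6.39% and 3.44% of all genes. The chaperone gene Hspa5 (BiP) stood at 484.5 and 560.9 CPM in untreated and 810.1 and 803.5 CPM in HU-treated libraries (log2FC 0.63, p adj = 2.94e-06), and Herpud1, a factor of protein degradation at the endoplasmic reticulum, rose from 22.3 and 20.3 to 91.6 and 84.5 CPM (log2FC 2.05). Hsp90b1, a chaperone of the same compartment, fell from 848.6 and 836.4 to 670.1 and 685.1 CPM (log2FC -0.31), a call kept in 2 of the 4 fits without 1 Trim33-WT library.

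Short Atf4 elements were more frequent in the promoters of this list than in those of all genes. The list was drawn from Atf4 targets, so its share partly reflects how the list was chosen. The element TGATGNAA, searched on both strands, lay in 13 of 34 integrated stress promoters (38.2%), in 44 of 544 promoters of genes that rose (8.09%), in 4 of 284 of genes that fell (1.41%) and in 209 of all 8560 (2.44%). The 13 genes were Atf3, Chac1, Trib3, Asns, Slc7a11, Vldlr, Nupr1, Pck2, Pycr1, Gars, Aars, Yars and Jdp2, of which all but Yars were called higher. Of the 21 integrated stress promoters without it, 14 belonged to genes that rose. The 44 promoters with it among genes that rose included 12 of this list. The promoters of Atf3 (GRCm38.p6, chr1:191183284-191183583, minus strand; mm9, chr1:193007163-193007462) and Trib3 (GRCm38.p6, chr2:152344011-152344310, minus strand; mm9, chr2:152169747-152170046) are shown as the called members of lowest p that held it among those with a single RefSeq promoter, with the element in capitals.
Atf3: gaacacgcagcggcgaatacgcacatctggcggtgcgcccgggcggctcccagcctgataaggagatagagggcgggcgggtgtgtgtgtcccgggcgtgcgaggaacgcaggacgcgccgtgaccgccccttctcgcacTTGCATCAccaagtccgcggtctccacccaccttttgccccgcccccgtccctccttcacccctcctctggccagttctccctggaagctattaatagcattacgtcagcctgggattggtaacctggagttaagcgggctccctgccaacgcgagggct
Trib3: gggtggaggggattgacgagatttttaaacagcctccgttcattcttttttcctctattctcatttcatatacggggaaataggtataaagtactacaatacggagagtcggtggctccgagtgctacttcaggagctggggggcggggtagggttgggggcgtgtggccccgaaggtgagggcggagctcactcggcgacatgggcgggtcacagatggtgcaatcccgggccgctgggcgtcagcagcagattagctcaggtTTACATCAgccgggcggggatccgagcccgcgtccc
The match began at position -110 in Atf3 and at position 14 in Trib3, counted from 0 at the RefSeq start. It lay on the opposite strand in both.

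**Figure D1:**
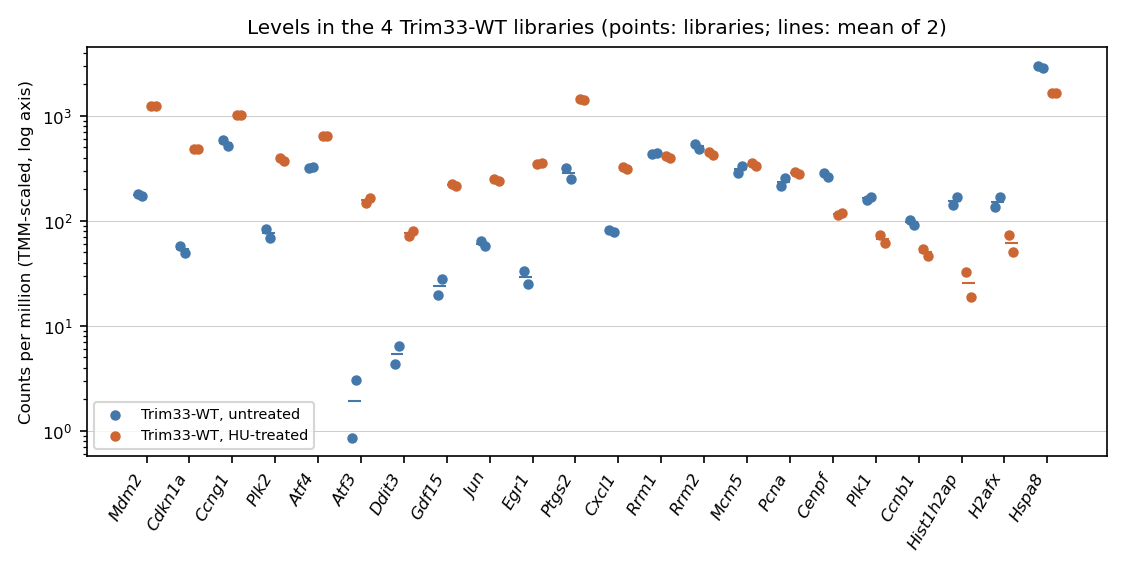
TMM-scaled CPM (log axis) of 22 genes in the 4 Trim33-WT libraries, each point being 1 library, with untreated in blue, HU-treated in orange and a line at the mean of 2 libraries. The p53, stress and NF-kB genes on the left lie higher with HU, Rrm1, Rrm2, Mcm5 and Pcna lie at similar levels, and the mitotic, histone and Hspa8 points on the right lie lower.

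Immediate-early genes formed the list with the highest median. Of 40 measured, 28 rose and 1 fell (Ctgf, log2FC -0.54), and the median log2FC was 1.22. These were 70% and 2.5% of the list, against 6.39% and 3.44% of all genes. Egr1, a zinc finger factor that growth factors induce within minutes, stood at 33.4 and 24.8 CPM in untreated and 346.8 and 358.8 CPM in HU-treated libraries (log2FC 3.61, SE 0.161, p adj = 4.41e-28). Jun, a subunit of AP-1, rose from 64.3 and 57.1 to 250.1 and 240.4 CPM (log2FC 2.02), and Jund, another, from 42.8 and 50.4 to 295.3 and 275.7 CPM (log2FC 2.61). Untreated and HU-treated libraries were well separated for each of these. Fos had 2 reads over both untreated libraries and 72 over both HU-treated ones, a ratio of 29.8 (95% exact counting interval 7.96 to 251, counting error only). Egr2 had 0 reads in untreated and 47 in HU-treated libraries, at least 13-fold higher against a floor of 3 counts over the untreated group. Such intervals and floors take counts as deposited, of which 70.2% to 73.2% of those from 1 to 50 were even, and would be wider if reads had been counted in pairs. Klf4, a zinc finger factor, rose from 39.8 and 23.3 to 183.3 and 201.9 CPM (log2FC 2.62), and Myc from 203.1 and 161.6 to 385.0 and 331.4 CPM (log2FC 0.98, p adj = 1.46e-09).

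Genes that feed back on or extend MAPK signaling moved the same way, with 10 of 20 measured genes higher, none lower and a median log2FC of 0.57. The rises were 50% of the list, against 6.39% of all genes. The epidermal growth factor receptor ligand gene Areg stood at 34.3 and 46.6 CPM in untreated and 183.9 and 191.5 CPM in HU-treated libraries (log2FC 2.2). Its relative Ereg rose from 52.7 and 49.6 to 170.5 and 158.6 CPM (log2FC 1.69). Fosl1, an AP-1 subunit downstream of Ras, rose from 18.0 and 20.3 to 51.9 and 57.1 CPM (log2FC 1.5). The dual-specificity phosphatase genes differed. Dusp1 rose from 0.857 and 1.5 to 15.3 and 20.8 CPM (log2FC 3.86), at 6 reads untreated and 108 HU-treated. Dusp4 (log2FC 0.98) and Dusp5 (log2FC 1.11) also rose. Dusp6, a phosphatase induced by Erk, had a log2FC of -0.14 and was not called.

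Of 32 measured NF-kB and TNF signaling genes, 24 rose and none fell, with a median log2FC of 1.03. The rises were 75% of the list, against 6.39% of all genes. With any 1 Trim33-WT library left out, fewer genes of this list were called. Ptgs2, which encodes cyclooxygenase-2, stood at 318.3 and 250 CPM in untreated and 1455.3 and 1428.3 CPM in HU-treated libraries (log2FC 2.35, SE 0.107, p adj = 1.40e-27). The neutrophil chemokine gene Cxcl1 rose from 81.8 and 78.9 to 325.5 and 309.6 CPM (log2FC 1.98), and the cytokine gene Lif from 35.1 and 33.1 to 156.9 and 157.6 CPM (log2FC 2.2). In each of these the HU-treated replicates lay close together and far above the untreated ones. Genes of the pathway's own control rose as well, among them the subunit gene Rela, from 60 and 65.0 to 150.8 and 168.0 CPM (log2FC 1.35), and Traf1, from 9 and 9.40 to 56.6 and 66.2 CPM (log2FC 2.73). The inhibitor gene Tnfaip3 (A20) rose with a log2FC of 1.61, and Nfkb1 with 0.59. Cxcl2 had 0 reads in untreated and 46 in HU-treated libraries, at least 12.7-fold higher on the same floor, and Cxcl10, which interferon also induces, had 2 and 31 reads, a ratio of 12.8 (95% exact counting interval 3.27 to 111). Of 16 measured interferon-stimulated genes 2 rose, Cxcl10 and Irf1 (log2FC 0.81), a share of 12.5% against 6.39% of all genes.

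An NF-kB consensus, added to the search after the values were seen, lay in 12 of 25 promoters of this list (48.0%), against 6.13% of all promoters, 9.74% of those of genes that rose and 4.93% of those of genes that fell. Of the 12 genes with it 10 rose, and of the 13 without it 9 rose. The list was drawn from NF-kB and TNF signaling genes, so its share partly reflects how the list was chosen. The promoters of Cxcl1 (GRCm38.p6, chr5:90890995-90891294, plus strand; mm9, chr5:91320021-91320320) and Ccl20 (GRCm38.p6, chr1:83116516-83116815, plus strand; mm9, chr1:83113091-83113390), the called members of lowest p that held it among those with a single RefSeq promoter, are shown with the consensus in capitals. In Cxcl1 2 overlapping matches fill the capitals.
Cxcl1: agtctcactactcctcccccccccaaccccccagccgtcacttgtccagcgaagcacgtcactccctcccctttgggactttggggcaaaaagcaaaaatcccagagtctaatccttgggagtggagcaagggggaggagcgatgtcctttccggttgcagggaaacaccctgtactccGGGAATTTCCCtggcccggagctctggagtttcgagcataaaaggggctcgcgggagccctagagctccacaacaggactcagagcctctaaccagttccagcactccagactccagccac
Ccl20: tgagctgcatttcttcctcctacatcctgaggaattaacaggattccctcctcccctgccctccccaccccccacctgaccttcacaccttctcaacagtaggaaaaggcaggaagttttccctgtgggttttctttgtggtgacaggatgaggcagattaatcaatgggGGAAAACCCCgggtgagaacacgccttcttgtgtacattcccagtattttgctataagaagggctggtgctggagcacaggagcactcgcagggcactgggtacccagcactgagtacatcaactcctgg
Ccl20, a chemokine gene, stood at 2.57 and 2.26 CPM in untreated and 17.2 and 18.0 CPM in HU-treated libraries (log2FC 2.85, p adj = 2.87e-04).

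**Figure D2:**
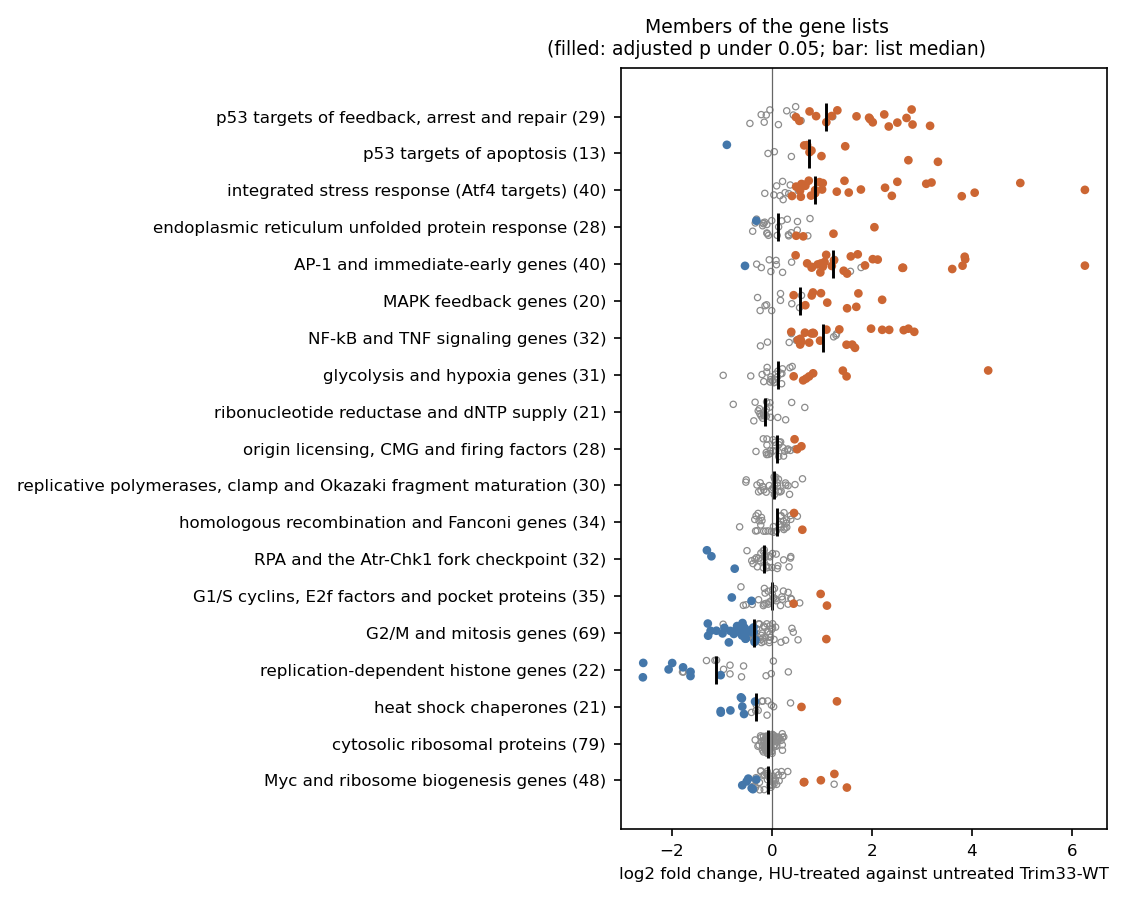
log2 fold change of each measured gene in 19 lists, HU-treated against untreated Trim33-WT cells, with 1 point per gene (orange, called higher; blue, called lower; open, not called), the number tested in parentheses and a bar at the list median; list members with 3 or fewer reads over the untreated libraries are not drawn but count in the medians. The p53, integrated stress, immediate-early and NF-kB lists lie to the right of 0, G2/M genes, histones and heat shock chaperones lie to the left, and the dNTP, polymerase and ribosomal protein lists hold no called gene.

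No mRNA of the enzyme that HU inhibits or of the rest of the dNTP supply passed the test. None of 21 genes of this list was called by edgeR, against 9.83% of all genes. The median log2FC was -0.14, with 17 below 0. Rrm1, the large subunit of ribonucleotide reductase, stood at 436.1 and 440.2 CPM in untreated and 413.9 and 397.9 CPM in HU-treated libraries (log2FC -0.11, SE 0.102). Rrm2, the small subunit, stood at 535.0 and 486.4 against 452.8 and 424.3 CPM (log2FC -0.22, SE 0.102, p adj = 0.193). Each HU-treated library lay below each untreated one, but 51% of all genes tested had groups that did not overlap. Of 30 genes for replicative polymerases, the clamp and Okazaki fragment maturation none was called either, with a median log2FC of 0.05, and Pcna, the clamp, had a log2FC of 0.28 (p adj = 0.116). At the 9.83% of all genes, lists of 21 and 30 genes would hold few calls, so counts of 0 say little. The median standard error of 0.22 over all genes limits what 2 libraries per group can show for changes of this size.

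Among 28 genes for origin licensing, the replicative helicase and origin firing, 3 rose and none fell, with a median log2FC of 0.11. The share called higher was 10.7%, against 6.39% of all genes. Cdc45, a subunit of the helicase, rose from 58.3 and 40.6 to 79.2 and 68.6 CPM (log2FC 0.59, p adj = 0.0267), and the licensing factor gene Cdt1 from 96.8 and 112.4 to 147.3 and 139.2 CPM (log2FC 0.45, p adj = 0.0356). Both calls held in 1 of the 4 fits without 1 Trim33-WT library. The third gene was Dnajc9 (log2FC 0.50), kept in 2. It is a co-chaperone gene that the list included, not itself a licensing, helicase or firing factor. Without HU-treated replicate 2 none of the list was called, without HU-treated replicate 1 there was 1, and without either untreated library there were 2. Cdc6 (log2FC 0.23) and the helicase subunit gene Mcm5 (log2FC 0.15) did not pass the test. Of 34 homologous recombination and Fanconi genes 2 rose, Brca1 (log2FC 0.44) and the nuclease scaffold gene Slx4 (log2FC 0.61), each with a call kept in 1 of the 4 fits. That share, 5.88%, was near the 6.39% of all genes called higher.

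In the list of RPA and the Atr-Chk1 fork checkpoint, 3 of 32 genes fell and none rose. The share called lower was 9.38%, against 3.44% of all genes. H2afx, the histone variant phosphorylated at damaged DNA, stood at 134.1 and 168.4 CPM in untreated and 72.5 and 49.9 CPM in HU-treated libraries (log2FC -1.30, SE 0.157, p adj = 1.71e-09). The phosphatase gene Cdc25c, which starts mitosis, fell from 40.7 and 51.9 to 22.9 and 17.0 CPM (log2FC -1.21, p adj = 2.91e-04), and the kinase gene Wee1, which holds it back, from 54.0 and 46.6 to 27.4 and 32.6 CPM (log2FC -0.75, p adj = 0.0120), a call kept in 2 of the 4 fits. The checkpoint kinase gene Chek1 had 53.1 and 57.1 CPM against 44.5 and 33.2 CPM and was not called (log2FC -0.50, p adj = 0.104). Of 35 genes of G1/S control, 3 rose (Rb1, Cdkn2b and Ccnd2, log2FC 0.43 to 1.10) and 2 fell (Ccna2, -0.41, and Cdkn2d, -0.80), and without single Trim33-WT libraries 1 or 2 of the rises and 0 or 1 of the falls were left. The shares of G1/S genes that rose and fell were 8.57% and 5.71%, against 6.39% and 3.44% of all genes. E2f1, Ccne1 and Ccne2, which rise as cells enter S phase, had log2FC of 0.32, 0.32 and 0.01 and were not called. E2f4 stood at 83.1 and 72.2 CPM against 76.7 and 60.6 CPM (log2FC -0.17), and Recql, a DNA helicase, at 27 and 31.2 against 22.0 and 22.9 CPM (log2FC -0.38, p adj = 0.443).

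Replication-dependent histone genes, whose mRNAs are made and kept in S phase and normally end without a poly(A) tail, had the lowest median of the lists described. Of 22 measured 8 fell and none rose, and the median log2FC was -1.13, with 20 below 0. The falls were 36.4% of the list, against 3.44% of all genes. Hist1h2ap (chr13:21924926-21925444) stood at 140.5 and 170.3 CPM in untreated and 32.8 and 18.7 CPM in HU-treated libraries (log2FC -2.58, SE 0.178, p adj = 7.05e-19). Hist1h2ao (chr13:21902236-21902754) had nearly the same values, at 140.1 and 171.0 against 33.1 and 18.7 CPM, so that the 2 near-identical genes cannot be told apart in these counts and are not separate evidence. Hist1h2ag fell from 47.1 and 78.6 to 23.2 and 7.97 CPM (log2FC -2), with the HU-treated replicates far apart. In each of these genes HU-treated replicate 2 was the lower. Without that library 4 of the list were called, and without untreated replicate 2 there were 5. The linker histone gene Hist1h1c had a log2FC of 0.33 and was not called.

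Genes of G2 phase and mitosis fell. Of 69 measured 29 fell and 1 rose, with a median log2FC of -0.36 and 59 below 0. These shares were 42.0% lower and 1.45% higher, against 3.44% and 6.39% of all genes. Plk1 (chr7:129302951-129313389), the kinase that drives mitotic entry, stood at 157.6 and 168.8 CPM in untreated and 72.5 and 61.3 CPM in HU-treated libraries (log2FC -1.28, SE 0.143, p adj = 1.35e-10). Cenpf (chr1:191464478-191511965), a kinetochore protein, fell from 288.3 and 259.8 to 114.5 and 119.1 CPM (log2FC -1.23, SE 0.121, p adj = 1.77e-12). Neither gene had overlapping groups. Aspm, a spindle pole protein, fell from 182.5 and 133.8 to 74.5 and 71.3 CPM (log2FC -1.11), Ccnb1, the mitotic cyclin, from 102.8 and 91.0 to 53.5 and 46.4 CPM (log2FC -0.95), and Cdc20, which activates the anaphase-promoting complex, from 161.1 and 172.2 to 113.0 and 115.0 CPM (log2FC -0.55). Members that did not pass the test included the kinase gene Cdk1, at 275.4 and 279.3 against 231.9 and 245.9 CPM (log2FC -0.22), and Top2a (log2FC -0.09). The gene that rose was Gtse1, from 99.8 and 97.0 to 225.3 and 192.6 CPM (log2FC 1.09, p adj = 2.12e-09), which p53 is known to induce and which is also on the p53 list. The number of calls leaned on the HU-treated libraries, since 14 genes fell without HU-treated replicate 1 and 19 without HU-treated replicate 2.

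The CHR (cell cycle genes homology region), TTTGAA, through which these genes are repressed outside G2 and mitosis, lay in 38 of 57 promoters of the list (66.7%). It lay in 26.1% of promoters of genes that fell, 13.1% of those of genes that rose and 14.1% of all. Of the 38 genes with it 20 fell, and of the 19 without it 6 fell. Among histone promoters 14 of 19 held it (73.7%) and 10 (52.6%) held the E2F site TTTNNCGC, against 10.7% of all promoters. The promoters of Cenpf (GRCm38.p6, chr1:189688037-189688336, minus strand; mm9, chr1:191511916-191512215) and Plk1 (GRCm38.p6, chr7:122159185-122159484, plus strand; mm9, chr7:129302699-129302998) are shown as the called members of lowest p that held the CHR among those with a single RefSeq promoter, with the CHR in capitals.
Cenpf: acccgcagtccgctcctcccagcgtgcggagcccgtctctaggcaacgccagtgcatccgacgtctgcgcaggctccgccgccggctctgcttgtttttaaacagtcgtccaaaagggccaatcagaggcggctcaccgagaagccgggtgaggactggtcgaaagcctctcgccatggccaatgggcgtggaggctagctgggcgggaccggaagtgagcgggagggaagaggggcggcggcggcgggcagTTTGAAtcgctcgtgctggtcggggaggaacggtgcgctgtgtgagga
Plk1: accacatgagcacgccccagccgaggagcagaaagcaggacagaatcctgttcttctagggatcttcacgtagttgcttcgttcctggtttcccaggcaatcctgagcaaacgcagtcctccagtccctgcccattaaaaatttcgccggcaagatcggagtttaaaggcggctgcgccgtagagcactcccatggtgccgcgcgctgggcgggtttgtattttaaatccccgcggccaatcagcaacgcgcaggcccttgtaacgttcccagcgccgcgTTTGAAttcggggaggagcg
The match began at position 2 in Cenpf and 30 in Plk1.

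**Figure D3:**
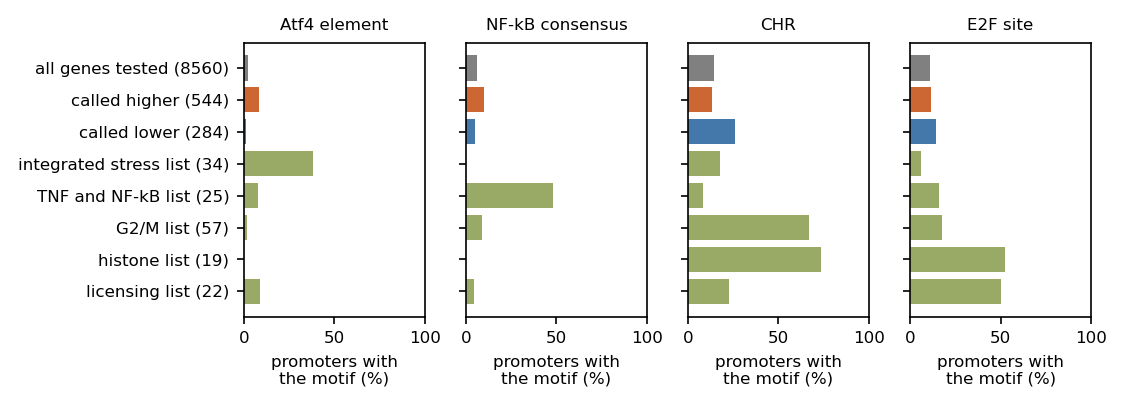
Share of RefSeq promoters (percent of genes with a promoter, whose number stands in parentheses) that hold each of 4 motifs on either strand, for all genes tested, genes called higher, genes called lower and 5 lists. Atf4 elements reach 38.2% in the integrated stress list, the NF-kB consensus 48.0% in the NF-kB list, the CHR 66.7% and 73.7% in the G2/M and histone lists, and the E2F site 52.6% and 50% in the histone and licensing lists, where 11 of 22 promoters hold it.

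The CCAAT box, added to the search after the values were seen, lay in 54.9% of promoters of genes that fell, 43.6% of those of genes that rose and 44.1% of all. By list it lay in 18 of 19 histone promoters (94.7%), 43 of 57 promoters of the G2 and mitosis list (75.4%) and 20 of 24 of the unfolded protein response (83.3%). The AP-1 element TGANTCA lay in 8.82% of promoters of genes that rose, 4.23% of those of genes that fell and 6.2% of all, and in 2 of 31 immediate-early promoters. The cAMP response element TGACGTCA lay in 6.62%, 1.76% and 3.77%. The CArG box, through which serum response factor acts, lay in 3 of 31 immediate-early promoters (9.68%) and 1.47% of all, and the C/EBP site TTGCNNAA in 9.19% of promoters of genes that rose and 9.44% of all.

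Heat shock chaperones fell in part. Of 21 measured 8 fell and 2 rose, with a median log2FC of -0.32. These shares were 38.1% lower and 9.52% higher, against 3.44% and 6.39% of all genes. Hspa8, the constitutive Hsp70, stood at 3011.1 and 2852.9 CPM in untreated and 1647.2 and 1645.8 CPM in HU-treated libraries (log2FC -0.83, SE 0.0904, p adj = 5.88e-11). Its cofactor genes Hsph1 (333.3 and 330.4 against 209.4 and 222.0 CPM) and Dnaja1 (254.5 and 257.1 against 164.2 and 172.8 CPM) fell with log2FC of -0.62 and -0.60. The Hsp90 gene Hsp90aa1 (log2FC -0.20) and Dnajb1 (log2FC 0.37) were not called. Hsf1, the master factor of the response, and the small chaperone gene Cryab rose (log2FC 0.59 and 1.30), and neither call held without any 1 of the Trim33-WT libraries. Without HU-treated replicate 1 the count of falls was 5.

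Genes of hypoxia and glycolysis split. Of 31 measured 8 rose and none fell, with a median log2FC of 0.12. The rises were 25.8% of the list, against 6.39% of all genes. Without untreated replicate 1 or either HU-treated library 5 rose. Ndrg1, a growth arrest gene that hypoxia induces, stood at 6 and 9.02 CPM in untreated and 144.4 and 162.1 CPM in HU-treated libraries (log2FC 4.33, SE 0.224, p adj = 6.90e-25). Vegfa rose from 20.6 and 41.7 to 86.9 and 81.7 CPM (log2FC 1.42), and Pfkfb3, an activator of glycolysis, from 18.8 and 18.4 to 54.7 and 50.2 CPM (log2FC 1.49). The core glycolytic genes Ldha (log2FC -0.04), Pkm (-0.02) and Eno1 (0.04) were not called. None of 79 ribosomal protein genes was called by edgeR (log2FC -0.34 to 0.24), against 9.83% of all genes. Of 48 Myc and ribosome biogenesis genes 5 rose and 6 fell. The shares of the Myc and ribosome biogenesis list were 10.4% and 12.5%, against 6.39% and 3.44% of all genes. The nucleolar genes Dkc1, Ppan, Gnl3, Ddx21 and Ubtf fell by 0.51, 0.60, 0.47, 0.38 and 0.41 on the log2 scale. Without 1 Trim33-WT library the falls of that list numbered 7 (without untreated replicate 1), 2 (without untreated or HU-treated replicate 2) or 0 (without HU-treated replicate 1), and the rises 3 or 4.

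By size alone, the 15 largest rises among called genes with at least 5 CPM on average were, in order, Atf3, Chac1, Fos, Dusp8, Ndrg1, Trib3, Txnip, 9230114K14Rik, Egr3, Dusp1, Fosb, Ddit3, Egr1, Cd80 and a gene with Entrez identifier 100503860. Txnip, which binds thioredoxin and limits glucose uptake, was in none of the lists and rose from 11.6 and 15 to 220.2 and 200.9 CPM (log2FC 3.97, SE 0.19, p adj = 1.31e-26). Dusp8 had 3 and 88 reads, a ratio of 24.3 (95% exact counting interval 8.05 to 120). The 15 largest falls were Hist1h2ap, Hist1h2ao, Arhgef39, Hist1h2ac, Hist1h2ag, Fam83d, Fv1, Pif1, Zfp825, Homez, Hist1h2ad, Xkr8, Miip, Hist1h2ah and Hist1h2an. Of the 4 fits without 1 Trim33-WT library, the call was kept in 1 for Homez, in 2 for Arhgef39, Fv1, Hist1h2ad, Miip and Hist1h2an, and in 3 for Zfp825 and Hist1h2ah. Histone H2A genes of the chr13 cluster, whose counts may share reads, made up 7 of these. Fam83d, a spindle protein, fell from 30.0 and 38.7 to 10.2 and 6.93 CPM (log2FC -2), and Pif1, a DNA helicase, from 28.3 and 32.3 to 7 and 8.66 CPM (log2FC -1.95, p adj = 2.92e-06).

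Long genes were called higher more often than short ones. Of the 9710 genes with a single GENCODE M1 entry (mm9), the 20% of longest genomic span (at least 65609 bases) had a median log2FC of 0.05, with 8.29% called higher and 1.96% lower. The 20% of shortest span (up to 7546 bases) had a median of -0.03, with 5.77% higher and 4.48% lower. By exonic length, 9.43% of the longest 20% (at least 6298 bases) were called higher and 2.83% lower, against 3.96% and 4.02% of the shortest 20% (up to 2034 bases). These shares are a description, since genes are not replicates.

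The direction of the response was largely shared with Trim33-KO cells, whose 4 libraries are separate from the 4 of Trim33-WT and share only the estimate of the spread. In Trim33-KO cells HU changed 723 genes (6.45% of those tested), 521 higher (4.65%) and 202 lower (1.8%). Of the 1102 genes called in Trim33-WT cells 1052 (95.5%) had the same sign in Trim33-KO cells, against 66.2% of all genes. Of the 716 genes that rose in Trim33-WT cells 375 (52.4%) were also called higher in Trim33-KO cells, and of the 386 that fell 98 (25.4%) were called lower. Their median log2FC in Trim33-KO cells was 0.63 and -0.29, which is not a test of a weaker response, since the genes were picked by their call in Trim33-WT cells. Genes called in both with the same sign numbered 473, which is 42.9% of the Trim33-WT calls and 65.4% of the Trim33-KO calls. The list medians in Trim33-KO cells were 0.96 for p53 arrest targets, 0.79 for integrated stress genes, 0.88 for immediate-early genes, 0.81 for NF-kB genes, -0.35 for G2/M genes and -1.73 for histones.

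Tested directly, the response differed between the genotypes in 8 genes, 0.0714% of those tested, with 602 genes at an unadjusted p under 0.05. The median standard error of this difference was 0.317 on the log2 scale, so that differences well under 1 were mostly not detectable. Klf4 rose in both, with a log2FC of 2.62 in Trim33-WT and 1.45 in Trim33-KO cells, where it stood higher before treatment at 61.8 and 60.1 CPM. Fosl1 rose in Trim33-WT cells (log2FC 1.5) and had a log2FC of 0.26 in Trim33-KO cells, a difference that did not pass the test. With 1 or the other HU-treated Trim33-WT library left out, no gene was called for the difference (464 and 474 genes at an unadjusted p under 0.05), and without untreated Trim33-WT replicate 1 there were 20.

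**Figure D4:**
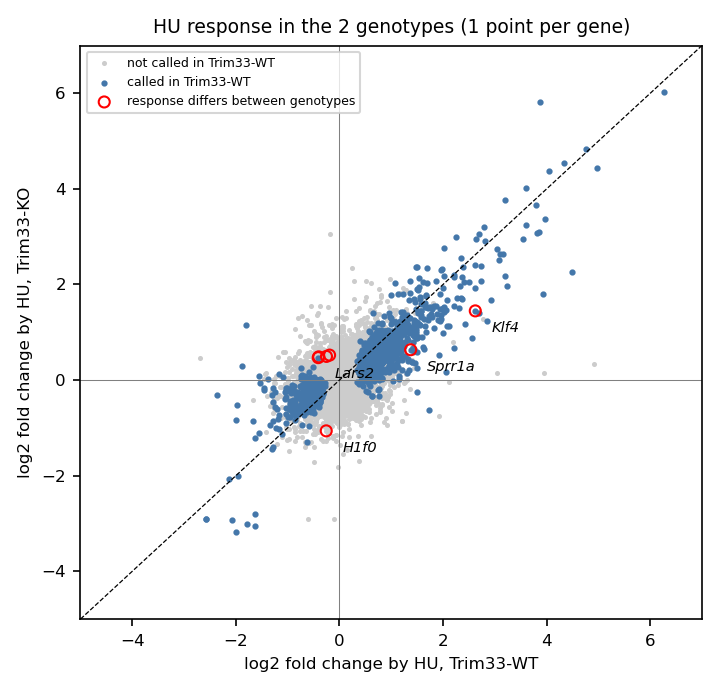
log2 fold change by HU in Trim33-KO (vertical axis) against Trim33-WT cells (horizontal axis) for the 10372 genes with a mean of at least 5 CPM over 8 libraries, 1 point per gene, with genes called in Trim33-WT cells in blue and 7 of the 8 genes whose response differed between genotypes circled in red. Most blue points lie in the upper right and lower left, and more of them lie below the dashed line of equal change at the right.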

How the data were processed

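The authors deposited 1 table of whole-number read counts per gene for the 8 libraries of the HU experiment. The labels name TRIzol for RNA isolation and NEBNext Ultra II for the libraries, while the study's methods name other kits. The submitters' processing notes name bcl2fastq 2.20, FastQC 0.11.5, STAR 2.5.4, edgeR 3.26.8 and mm9. The counting tool and annotation are not given in the sources used here. Between 70.2% and 73.2% of counts from 1 to 50 were even in the Trim33-WT libraries, for a reason not given there, so halved counts were tried as an alternative.

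Counts were fitted over all 8 libraries (4 groups of 2) with edgeR 4.0.16 in R 4.3.3 (TMM scaling, glmQLFit, glmQLFTest), which was tested on simulated data. The filter on low counts (filterByExpr) removed 0 genes, and the biological coefficient of variation was 0.102. CPM were scaled by TMM and the standard error is that of the log2FC. The labels do not say that replicates are separate cultures, so p-values measure the spread between these libraries, which may be technical. Between replicates the mean chi-square per gene was 2.219 (HU-treated Trim33-WT) to 4.568 (untreated Trim33-WT) on counts as deposited, against 1 for counting noise. If reads had been counted in pairs the lower value would lie near 1, so whether that pair differed beyond counting noise cannot be told. Replicate numbers did not pair the samples (correlations of deviations from -0.0139 to 0.0565).

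The comparison, lists, motifs and alternatives were chosen with earlier results of these data known. Named were the 15 largest rises and falls with at least 5 CPM on average, up to 5 called genes per list and direction by lowest p, fixed genes of the study and pathways, genes whose response differed, and uncalled list members by value. Asns, Tnfaip3, Nfkb1, Dusp4, Dusp5, Egr2, Cxcl2, Ccl20 and mt-Rnr1 were added after their values were seen. Promoters were RefSeq's (GRCm38.p6), matched by Entrez identifier for 8560 of 11210 genes. Gene positions are from GENCODE M1 (mm9). List medians were the same with genes at 0 untreated reads set to their bound, except for p53 targets of apoptosis (0.70 against 0.75). Lists overlap, and 168 genes had no symbol.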

Additional observations from a re-analysis of the deposited data

Results flagged for a closer look

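In 8 genes the response to HU differed between the genotypes by a test of the difference itself (edgeR interaction, log2FC in Trim33-KO minus log2FC in Trim33-WT cells). In 3 of them, cells responded less or more negatively in Trim33-KO cells. For H1f0, a linker histone gene, the difference was -0.81 (log2FC -0.26 in Trim33-WT and -1.06 in Trim33-KO cells). For Klf4 it was -1.17 and for Sprr1a, a gene of epithelial cornification, -0.74 (log2FC 1.37 and 0.64). Sprr1a stood at 96.0 and 94.7 CPM in untreated Trim33-WT and 482.2 and 560.6 CPM in untreated Trim33-KO libraries.

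In the other 5 genes the difference was positive. It was 0.75 for Rn18s and 0.71 for Rn28s1, which are ribosomal RNAs (log2FC -0.25 and -0.19 in Trim33-WT, 0.50 and 0.52 in Trim33-KO cells). It was 0.88 for Lars2, the mitochondrial leucyl-tRNA synthetase gene. Lars2 was called lower in Trim33-WT (log2FC -0.41, edgeR p adj = 0.0224) and higher in Trim33-KO cells (log2FC 0.47). Its Trim33-WT call was lost in most fits without 1 Trim33-WT library (log2FC -0.52 to -0.31). The difference was 0.89 for Ppp2r1b, a scaffold subunit of protein phosphatase 2A (log2FC -0.40 and 0.49). For the gene with Entrez identifier 100502672 the fitted difference was 7.96, which depends on the prior count because this gene had 0 reads in both untreated Trim33-KO libraries. Its Trim33-WT levels were 1.71 and 6.01 against 3.82 and 2.77 CPM. The causes of these differences were not tested.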

How the results depend on the processing

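The 1102 calls in Trim33-WT cells stayed within 1.5 times under DESeq2 size factors (1112), no filter (1102), at least 5 CPM in every library (1047), the Trim33-WT groups alone (1038) and halved counts (1141). The DESeq2 Wald test gave 727 (249 lower, of 386), and a log2FC of at least 1 left 336 (286 higher, 50 lower). For Trim33-KO cells these 2 alternatives gave 456 (347 higher, 109 lower) and 262 (231 higher, 31 lower), and for the difference between genotypes 5 (2 higher) and 2 (1 higher, 1 lower). With the replicate block, which the labels and the correlation check do not back as a pairing, 1230 genes were called in Trim33-WT cells, 825 in Trim33-KO cells and 10 for the difference. Leaving out 1 library at a time gave 553 to 1230 calls in Trim33-WT (416 to 738 higher, 137 to 492 lower), 389 to 829 in Trim33-KO cells (303 to 585 higher, 86 to 244 lower) and 0 to 20 for the difference (0 to 7 higher, 0 to 13 lower). Signs turned only for uncalled values, the causes not being tested: Ccne2 at -0.00362 (DESeq2 size factors), -0.000962 (5 CPM) and -0.0051 (DESeq2 Wald test) and, without 1 library, Ccne2 at -0.185 to 0.185, Trim33 at -0.00342 to 0.159, Trp53 at -0.0537 to 0.0217, Rrm2b at -0.28 to 0.198 and Entrez_100502672 (a gene with no symbol) at -0.864 to 0.916. With 2 libraries per group of 2315327 to 3082202 reads, genes with few reads have wide errors.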

Other observations

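Outside the lists, the called genes of lowest p held several with known roles. Timp3, an inhibitor of matrix metalloproteinases, rose from 375.3 and 342.5 to 1058.9 and 1080.6 CPM (log2FC 1.58, p adj = 9.71e-20), and the autophagy receptor gene Sqstm1 from 574.0 and 590.6 to 1287.6 and 1285.3 CPM (log2FC 1.14). Ddias, a suppressor of apoptosis after DNA damage, rose from 43.7 and 39.1 to 154.6 and 175.2 CPM (log2FC 2.0), and the chromatin remodeler gene Chd2 from 47.6 and 36.8 to 168.0 and 160.0 CPM (log2FC 1.96). Among the falls were Actb, the cytoskeletal actin often used as a reference gene, from 1294.6 and 1395.1 to 766.8 and 792.1 CPM (log2FC -0.79, SE 0.0952, p adj = 1.81e-09), and the nuclear importer gene Kpna2, from 384.7 and 366.2 to 203.3 and 199.1 CPM (log2FC -0.90). Mat2a, which makes S-adenosylmethionine, fell from 313.6 and 292.8 to 174.0 and 157.9 CPM (log2FC -0.87). The falls of lowest p outside the lists also held Gm10184, Gm10259, Gm11847, Gm12715 and Ccnb1-ps, whose names mark predicted genes or a pseudogene and whose reads may belong to parent genes. These genes were chosen after their values were seen.

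Among signaling genes, 6 of 29 of the TGF-beta and BMP list rose and 3 fell (20.7% and 10.3%, against 6.39% and 3.44% of all genes). Inhba, the activin A subunit, rose from 81.4 and 103.0 to 248.8 and 250.1 CPM (log2FC 1.43). Id1 fell from 91.7 and 131.2 to 77.3 and 70.0 CPM (log2FC -0.60), a call kept in 2 of the 4 fits without 1 Trim33-WT library, and without HU-treated replicate 2 the list held no fall. Of 6 epithelial and progenitor markers, Sox9 rose from 23.1 and 27.1 to 71.3 and 68.6 CPM (log2FC 1.47), Krt19 rose (log2FC 0.49, kept in 2 of those fits) and Cd24a fell (log2FC -0.59). Of 14 measured C/EBP factors and targets 5 rose and 1 fell. Cebpb rose (log2FC 0.58, p adj = 0.0236), from 43.7 and 79.7 to 93.5 and 92.1 CPM, with the call kept in 1 of those fits. Il1rn, another of the rises, had 0 reads in untreated libraries. Cebpd was not called (log2FC 0.19, p adj = 0.723). Rest and its partner Rcor1 were the 2 of 13 measured genes of the REST list that rose (log2FC 0.83 and 0.74), with calls kept in 1 and 2 of those fits. In the C/EBP list 35.7% of genes were called higher and 7.14% lower, and in the REST list 15.4% were called higher. By the DESeq2 Wald test 2 genes of the C/EBP list rose. Of 29 Nrf2 pathway genes 2 rose and 2 fell, with Hmox1 at a log2FC of 0.82. Of 28 Hippo-Yap genes 2 rose and 1 fell, and of 28 cholesterol genes 1 rose and 2 fell. These shares stand against 6.39% of all genes called higher and 3.44% called lower. The Nrf2 list held no fall in 3 of the 4 fits, without untreated replicate 2 or either HU-treated library. The Hippo-Yap list held no fall without HU-treated replicate 1, and the cholesterol list held no call without HU-treated replicate 2. The measured hepatocyte (3), mesenchymal (4), leukocyte (1) and endothelial (1) genes held no call by edgeR.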
